A study of Mus musculus with 12 samples.

Results

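The 10 genes described here steer mouse cells through G1, the stretch of the cell cycle before DNA is copied, and were taken by symbol from a table of 35976 genes. They are the D-type cyclin genes Ccnd1, Ccnd2 and Ccnd3, the E-type cyclin genes Ccne1 and Ccne2, the kinase genes Cdk4 and Cdk6, the inhibitor gene Cdkn1b, and the pocket protein genes Rb1 and Rbl1. All 10 were found, and all passed the filter on low values that left 15341 genes for testing. RNA was sequenced from KO+Rescue, PROSER1 KO and WT cells after 48 hours in N2B27 medium (day 2) and from the same 3 lines as mouse embryonic stem cells (mESC), with 2 libraries in each of the 6 groups. PROSER1 is a chromatin protein that binds the TET enzymes, which oxidise methylated cytosine. The KO line is a clone from a single sorted cell edited by CRISPR in exon 1 of Proser1, and KO+Rescue is a further clone of KO cells that carries a PiggyBac insertion of FLAG-tagged Proser1. Differences between lines can therefore not be told apart from differences between clones. All mESC grew in serum with LIF, the MEK inhibitor PD0325901 and the GSK3 inhibitor CHIR99021, and the N2B27 recipe lists none of these, so each stage comparison also spans the loss of those agents. The labels call the libraries biological replicates without saying how cultures were separated, and p-values measure the spread between these libraries alone.

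D-type cyclins bind CDK4 and CDK6 when growth signals arrive, and E-type cyclins bind CDK2. Both kinds of kinase phosphorylate the pocket proteins RB1, RBL1 (p107) and RBL2 (p130), which releases E2F factors to switch on genes for DNA replication. The protein of Cdkn1b, p27, holds cyclin E and CDK2 complexes in check. mESC grown in serum and LIF are known for a short G1 with much cyclin E activity, and G1 lengthens as such cells leave pluripotency. Here the MEK and GSK3 inhibitors were also present, and the length of G1 was not measured. Ccnd1 is a textbook target of both ERK and Wnt signalling, the pathways on which the 2 inhibitors act.

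Values are normalised counts, that is, read counts divided by a size factor for each library, and a change is a difference in log2(normalised count + 1) with its standard error (SE) from limma. A gene was called at a Benjamini-Hochberg adjusted p under 0.05 over all tested genes. Library totals lay between 38634668 and 66450803 assigned reads, and the lowest recovered count behind any value of the 10 genes was 63. Proser1 itself had 3041 and 2994 normalised counts in KO+Rescue cells, 872 and 1067 in KO cells and 829 and 685 in WT cells at day 2, and 2828 and 3090, 576 and 502, and 889 and 550 in the same lines as mESC, so its RNA was not lost in KO cells. All 8 pluripotency markers were called lower at day 2 than in mESC in each line. Their summed level was 162681 to 223642 normalised counts over the mESC libraries. It was higher in each KO and KO+Rescue mESC library than in either WT mESC library, with Pou5f1 as the highest single gene. Marker by marker, 0 of the 8 were called in KO against WT mESC, with a median change of -0.13. In KO+Rescue against WT mESC 1 was called higher and 0 lower, with a median of 0.12. Markers of other cell types moved between the stages too. All 5 formative epiblast markers and all 3 tested primitive endoderm markers were called higher at day 2 in each line, as were 3, 3 and 2 of 3 tested neural and 3, 3 and 4 of 4 tested fibroblast markers in KO+Rescue, KO and WT cells. Of 3 tested trophoblast markers 2 were higher and 1 lower in each line, and of 5 mesendoderm markers 1, 2 and 1 were higher and 3, 3 and 2 lower. In KO against WT at day 2, 1 of 8 pluripotency markers was called higher and 1 lower. Also called higher there were 3 formative, 2 neural, 2 mesendoderm and 1 primitive endoderm marker. Over all tested genes 1.57% were called higher and 3.64% lower there. In mESC 1 formative, 1 neural, 1 primitive endoderm and 2 trophoblast markers were higher, and 1 mesendoderm and 1 fibroblast marker lower. Over all tested genes 3.23% were higher and 6.26% lower in mESC. With equal library totals the 3 formative calls at day 2 were lost, and the other day 2 counts stayed. In mESC the formative and primitive endoderm calls were lost, and 1 trophoblast marker stayed called. The summed formative level at day 2 was 80713 to 81247 normalised counts in KO+Rescue, 92894 to 95307 in KO and 56805 to 72772 in WT libraries. That of the 7 fibroblast markers was 718 to 746, 1452 to 1613 and 1109 to 1224 at day 2. In mESC it was 99.7 to 140, 140 to 166 and 354 to 409 in the same order. Thy1 was the highest single gene of the fibroblast list in each group. Postn was at 0 in all mESC, and Lum at 0 in KO+Rescue and KO mESC. The part of these cells in the results was not tested. Columns of KO and KO+Rescue were told apart by a line code with or without the letter R, which is a reading of the column names and not stated in the labels.

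**Figure D1:**
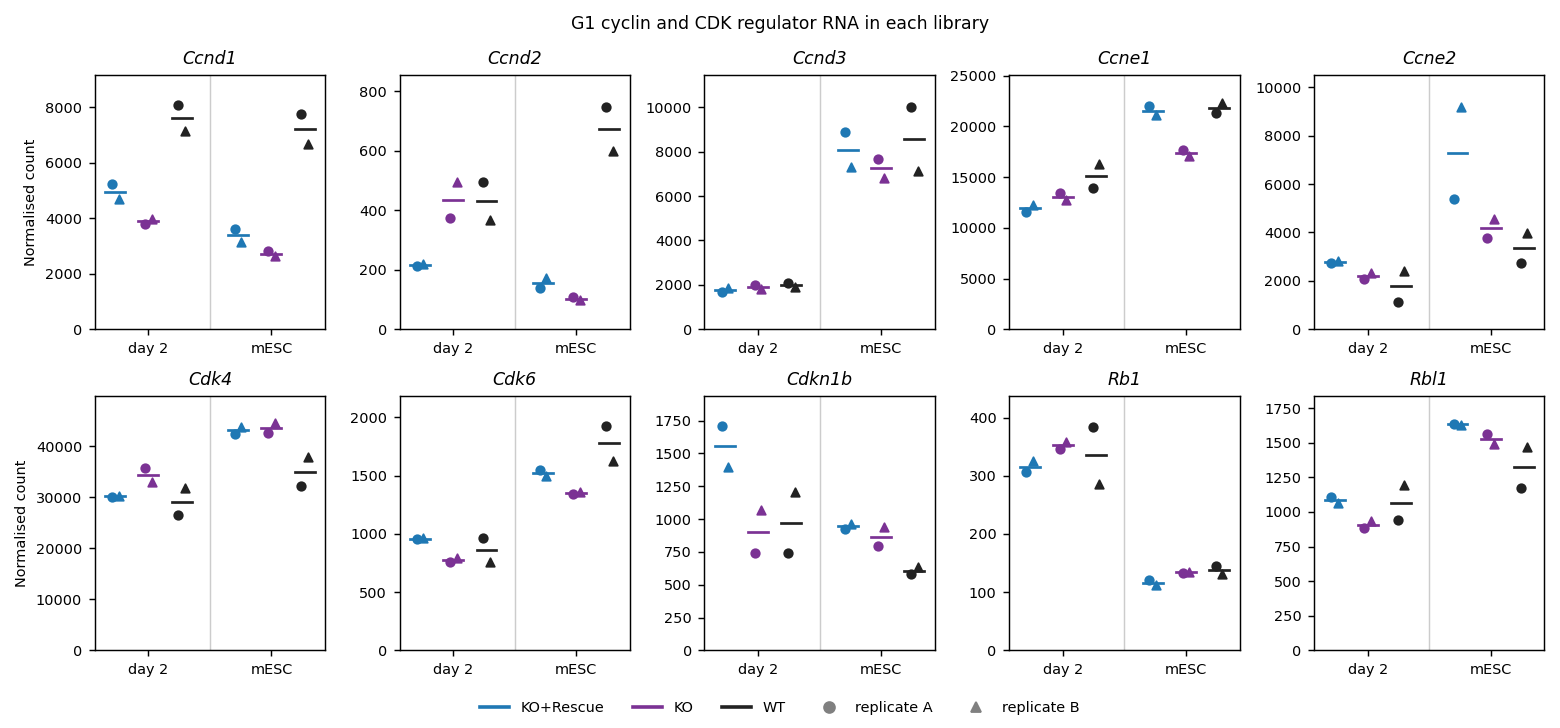
Normalised counts (vertical axes, linear from 0) of the 10 genes in each library at day 2 (left of each panel) and in mESC (right), drawn as circles (replicate A) and triangles (replicate B) over a bar at each group mean. Ccnd1 was at 6692 or more in all 4 WT libraries and at 5244 or less in all others, and Ccnd2 was at 97.1 to 171 in KO and KO+Rescue mESC against 597 and 746 in WT mESC.

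Loss of PROSER1 went with low Ccnd1 at both stages and with low Ccnd2 in mESC, while none of the other 8 genes was called in KO against WT at either stage. At day 2, 1 of the 10 genes was called lower and none higher, where 3.64% of all tested genes were called lower. In mESC the count was 2 lower and none higher, where 6.26% were called lower. An unadjusted p under 0.05 was found for 1 of the 10 genes at day 2 and 5 in mESC, beside 18.4% and 29.0% of all tested genes. Of the 10 genes edgeR and DESeq2 each called 1 and 2. The median change of the 10 genes was -0.09 at day 2 and -0.13 in mESC, beside medians of 0.02 and -0.04 over all tested genes. In bulk RNA, fewer cells that express a gene and less of its RNA per cell cannot be told apart.

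Ccnd1 (Entrez gene 12443, chromosome 7, 144929931 to 144939831 in GRCm38.p6) encodes cyclin D1. At day 2 it had 3801 and 3966 normalised counts in KO cells, against 8073 and 7143 in WT cells. The change was -0.97 ± 0.13 (SE, adjusted p = 0.00072). In mESC it had 2819 and 2625 in KO cells, against 7774 and 6692 in WT cells, a change of -1.41 ± 0.13 (adjusted p = 5.3e-05). The groups did not overlap at either stage. The 2 differences were not called unlike each other (interaction 0.44 ± 0.18, 95% interval 0.04 to 0.83, adjusted p = 0.329). From the highest group mean to the lowest, Ccnd1 ran WT day 2, WT mESC, KO+Rescue day 2, KO day 2, KO+Rescue mESC and KO mESC, and of neighbours in that order only the pair of WT groups overlapped.

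Ccnd2 (Entrez gene 12444, chromosome 6, 127125162 to 127152188) encodes cyclin D2, and its difference between KO and WT was tied to the stage. At day 2 it had 374 and 496 normalised counts in KO cells, against 493 and 367 in WT cells. The groups overlapped, and the change was 0.02 ± 0.21 (95% interval -0.44 to 0.48, adjusted p = 0.976). In mESC it had 109 and 97.1 in KO cells, against 746 and 597 in WT cells. Both KO libraries were far below both WT libraries, with a change of -2.69 ± 0.21 (adjusted p = 1.58e-05). The interaction of KO and stage was 2.71 ± 0.30 (adjusted p = 0.0018), which made Ccnd2 the 1 gene of the 10 called in that contrast, where 0.502% of tested genes were called in the same direction. The other 9 genes had interactions between -0.60 and 0.44, with adjusted p from 0.329 to 0.96. The calls of Ccnd1 and Ccnd2 in KO against WT and the Ccnd2 interaction were kept under all alternatives, with an adjusted p of at most 0.0203 for the interaction.

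Ccnd3 (Entrez gene 12445, chromosome 17, 47505051 to 47599689), the cyclin D3 gene, was not called in KO against WT. It had 7669 and 6832 normalised counts in KO mESC, against 10014 and 7133 in WT mESC, and the groups overlapped (change -0.22, 95% interval -0.57 to 0.12, adjusted p = 0.363). At day 2 it had 1985 and 1797 in KO cells, against 2103 and 1911 in WT cells, again with overlap.

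In KO against WT mESC, changes of the 8 genes that were not called lay between -0.39 and 0.51. Cdk6, a partner kinase of the D-type cyclins, had 1340 and 1362 normalised counts in KO mESC, against 1929 and 1623 in WT mESC (change -0.39 ± 0.14, adjusted p = 0.0966). Ccne1 had 17695 and 17073 in KO mESC, against 21294 and 22297 in WT mESC (-0.33 ± 0.13, adjusted p = 0.115). Cdkn1b had 797 and 936 in KO mESC, against 579 and 634 in WT mESC (0.51 ± 0.22, adjusted p = 0.148). In these 3 genes the KO and WT libraries did not overlap, but the differences did not pass the test over all genes. With the replicate letter as a block all 3 were called (adjusted p = 0.0379 for Cdk6, 0.0422 for Ccne1 and 0.0447 for Cdkn1b). Ccne1 was also called with equal library totals (-0.54, adjusted p = 0.0273), and Cdk6 without WT mESC replicate B (-0.51, adjusted p = 0.041). At day 2 the groups were apart for 4 of the 10 genes, beside 47.8% of tested genes, and in mESC for 7 of 10, beside 58.9%.

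**Figure D2:**
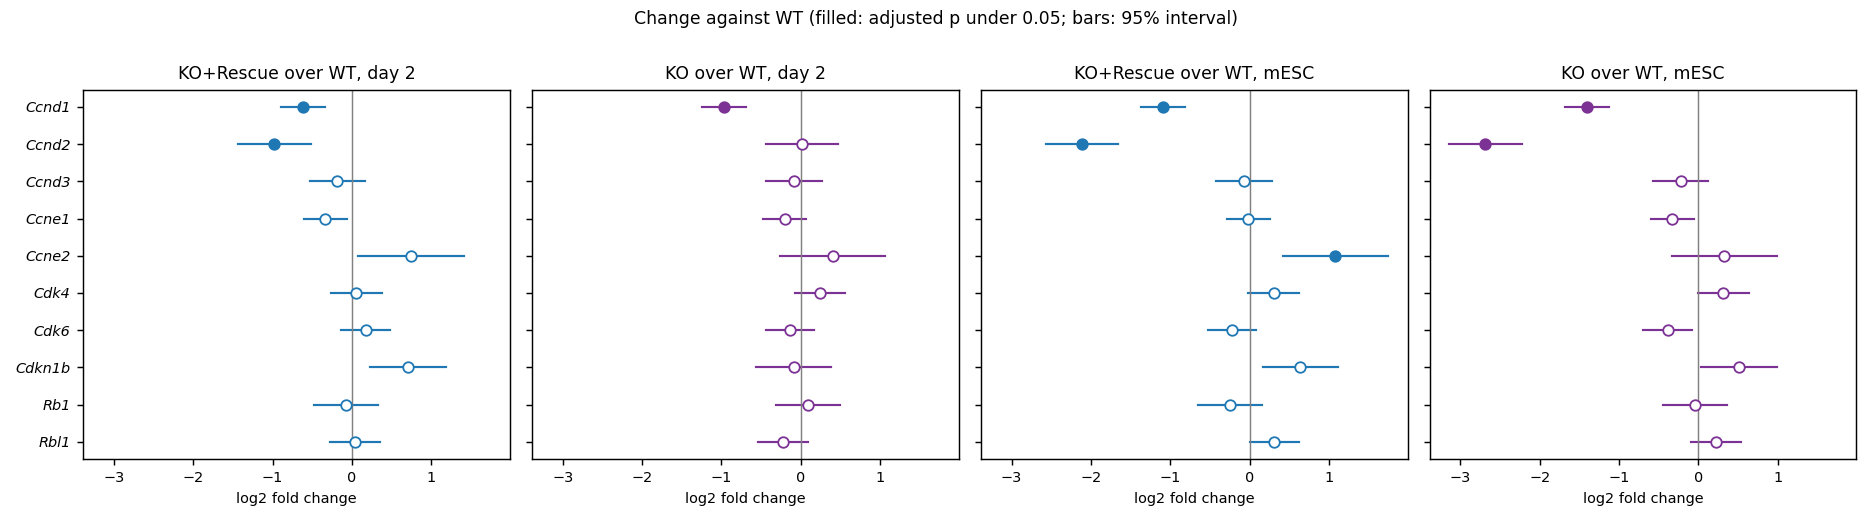
Changes of the 10 genes against WT (horizontal axes, log2 fold change) for KO+Rescue and KO at day 2 and in mESC, with bars for 95% intervals and filled points for adjusted p under 0.05. Ccnd1 is below 0 and called in all 4 panels (-0.62, -0.97, -1.09 and -1.41), and Ccnd2 in all but KO over WT at day 2 (0.02).

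Re-expression of Proser1 left Ccnd1 and, in mESC, Ccnd2 well below WT. Ccnd1 had 5244 and 4682 normalised counts in KO+Rescue day 2 cells and 3627 and 3161 in KO+Rescue mESC. These values lay above both KO libraries and below both WT libraries of the same stage. Against WT the change was -0.62 ± 0.13 at day 2 (adjusted p = 0.0106) and -1.09 ± 0.13 in mESC (adjusted p = 0.000419). The day 2 call was kept under 11 of 14 alternatives. It was lost on the compared groups alone, without KO+Rescue replicate B (-0.53) and without WT replicate A (-0.53). Against KO the change in Ccnd1 was 0.35 ± 0.13 at day 2 (95% interval 0.07 to 0.63, adjusted p = 0.19) and 0.32 ± 0.13 in mESC (0.04 to 0.59, adjusted p = 0.297). Neither of these passed the test.

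Ccnd2 had 212 and 218 normalised counts in KO+Rescue day 2 cells and 138 and 171 in KO+Rescue mESC. In mESC it lay a little above KO and far below WT, with a change of -2.11 ± 0.21 against WT (adjusted p = 0.000129) and 0.58 ± 0.21 against KO (95% interval 0.12 to 1.03, adjusted p = 0.237). At day 2 both KO+Rescue libraries were below all KO and WT libraries. The change there was -1.0 ± 0.21 against KO (adjusted p = 0.0342) and -0.98 ± 0.21 against WT (adjusted p = 0.0121). The call against KO was lost on leaving out any 1 of its libraries, where the change was -1.20 without replicate A and -0.79 without replicate B of KO, and -0.98 without replicate A and -1.02 without replicate B of KO+Rescue, with adjusted p from 0.12 to 0.267. The call against WT was lost without KO+Rescue replicate A (-0.96, adjusted p = 0.0885), without KO+Rescue replicate B (-1.0, adjusted p = 0.0797) and without WT replicate A (-0.77, adjusted p = 0.0955).

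Ccne2, the gene of cyclin E2 (Entrez gene 12448, chromosome 4, 11190433 to 11204779), was the gene of the 10 called higher in KO+Rescue than in WT. In mESC it had 5389 and 9170 normalised counts in KO+Rescue cells, against 2755 and 3994 in WT cells. Both KO+Rescue libraries were above both WT libraries, but they differed from each other more than 1.5 times. The change was 1.08 ± 0.31 (adjusted p = 0.0317), and it was 0.70 without KO+Rescue replicate B (adjusted p = 0.303) and 0.82 without WT replicate A (adjusted p = 0.232). The change stayed at 1.08 but was not called without the filter (adjusted p = 0.0691), without the trend (adjusted p = 0.0979) or on the compared groups alone (adjusted p = 0.0551).

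Cdkn1b (Entrez gene 12576, chromosome 6, 134920401 to 134925525) had its highest values in KO+Rescue day 2 cells, at 1707 and 1399 normalised counts, against 739 and 1067 in KO cells and 743 and 1203 in WT cells. The groups did not overlap. The change was 0.80 ± 0.22 against KO (adjusted p = 0.0902) and 0.71 ± 0.22 against WT (adjusted p = 0.0567). Neither passed in the main limma fit. With the replicate letter as a block limma called both (adjusted p = 0.0119 and 0.00776). On the compared groups alone it called the one against KO (adjusted p = 0.0206). On the recovered reads DESeq2 called both (adjusted p = 0.029 and 0.0344), and edgeR the one against WT (adjusted p = 0.0441). In mESC Cdkn1b had 926 and 965 normalised counts in KO+Rescue cells, against 579 and 634 in WT cells (0.64, adjusted p = 0.0592 in limma). That difference was called by DESeq2 (adjusted p = 0.0393) and by limma with the block (adjusted p = 0.0114).

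In counts, 1 of the 10 genes was higher and 2 lower in KO+Rescue than in WT mESC, where 9.15% of tested genes were called higher and 9.04% lower. At day 2 none was higher and 2 were lower than in WT, where 7.2% were called lower. Against KO at day 2, 1 gene was lower, where 1.33% were called lower. Against KO in mESC limma called none of the 10 genes, where 1.51% of tested genes were called in either direction. An unadjusted p under 0.05 was found there for 4 genes, beside 13.4% of all tested genes, and edgeR and DESeq2 on the recovered reads called 0 as well. The interaction of re-expression and stage was not called by limma for any of the 10 genes, where 0.0847% of tested genes were called. It had an unadjusted p under 0.05 for 2 genes, beside 9.24% of all tested genes, with 0 calls by edgeR and 1 by DESeq2. Its largest value was that of Ccnd2 (-1.57 ± 0.30, adjusted p = 0.0852). The comparisons with KO and with WT share the KO+Rescue libraries.

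The move from mESC to day 2 changed most of the 10 genes in each line. Ccnd3, Ccne1, Ccne2 and Cdk6 were called lower and Rb1 higher at day 2 in all 3 genotypes. In KO+Rescue cells 3 genes were called higher and 6 lower, where 29.2% and 29.1% of tested genes were called in those directions. In KO cells 3 were higher and 5 lower, where 31.4% and 28.7% were called. In WT cells 2 were higher and 5 lower, where 26.6% and 25.3% were called. The median change of all tested genes was -0.03 in KO+Rescue, 0.02 in KO and -0.02 in WT cells, but 0.35, 0.36 and 0.22 when libraries were scaled to equal totals, so small falls depended on the scaling. With equal totals 8 falls were not called, those of Cdk4 and Rbl1 in KO+Rescue cells, Cdk6 in KO+Rescue and KO cells, Ccne2 in KO cells, Ccne1 in KO and WT cells and Ccnd2 in WT cells.

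**Figure D3:**
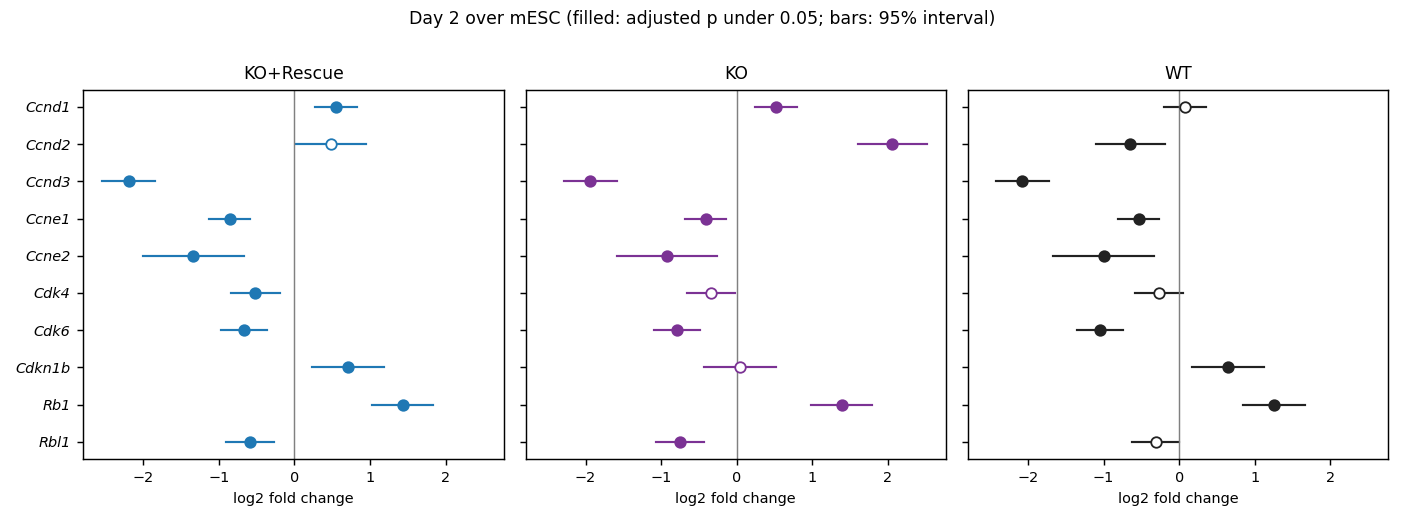
Changes of the 10 genes at day 2 over mESC (horizontal axes, log2 fold change) in KO+Rescue, KO and WT cells, with bars for 95% intervals and filled points for adjusted p under 0.05. Ccnd3 is near -2 and Rb1 above 1 in all 3 panels, while Ccnd2 is at 0.48, 2.06 and -0.65.

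Ccnd3 had the largest stage difference of the 10 genes in KO+Rescue and WT cells, and the largest fall in KO cells, where the rise of Ccnd2 was larger in size. It had 1687 and 1837 normalised counts at day 2 against 8873 and 7312 in mESC of the KO+Rescue line. In KO cells it had 1985 and 1797 at day 2 against 7669 and 6832 in mESC, and in WT cells 2103 and 1911 at day 2 against 10014 and 7133 in mESC. All day 2 libraries were far below all mESC libraries. The changes were -2.19 ± 0.16 in KO+Rescue, -1.94 ± 0.16 in KO and -2.08 ± 0.16 in WT cells (adjusted p = 1.54e-07, 4.77e-07 and 3.73e-07).

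Ccnd1 and Ccnd2 passed the test in some lines and not in others. Their stage changes were compared between KO and WT and between KO+Rescue and KO. Of these comparisons the main fit called that of Ccnd2 between KO and WT. The stage changes of KO+Rescue and WT cells were not compared by a test. Ccnd1 was called higher at day 2 than in mESC in KO+Rescue (0.55 ± 0.13, adjusted p = 0.0027) and KO cells (0.51 ± 0.13, adjusted p = 0.0041), and was not called in WT cells (0.07 ± 0.13, 95% interval -0.20 to 0.35, adjusted p = 0.65). Ccnd2 rose in KO cells to 374 and 496 normalised counts at day 2, against 109 and 97.1 in mESC (2.06 ± 0.21, adjusted p = 3.2e-06). In WT cells it fell to 493 and 367 at day 2, against 746 and 597 in mESC (-0.65 ± 0.21, adjusted p = 0.0207). This WT fall kept its call under 10 of 14 alternatives. It lost the call without WT mESC replicate A (-0.49) and without WT day 2 replicate B (-0.44). The call was also lost on the WT groups alone and with equal library totals (-0.41, adjusted p = 0.193). The KO+Rescue value of 0.48 ± 0.21 was not called (adjusted p = 0.0656). The KO mESC and KO day 2 means thus lay at the lowest and the next to highest place among the 6 groups.

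The E-type cyclins bind CDK2. Ccne1 (Entrez gene 12447, chromosome 7, 38097984 to 38107490) had 11551 and 12276 normalised counts at day 2 against 22030 and 21107 in mESC of the KO+Rescue line. In KO cells it had 13418 and 12725 at day 2 against 17695 and 17073 in mESC, and in WT cells 13900 and 16296 at day 2 against 21294 and 22297 in mESC. Both stages were apart in each line, with changes of -0.86 ± 0.13 in KO+Rescue, -0.41 ± 0.13 in KO and -0.53 ± 0.13 in WT cells (adjusted p = 7.68e-05, 0.0128 and 0.00325). In KO cells the call was lost without mESC replicate A (-0.39), mESC replicate B (-0.44) or day 2 replicate B (-0.37), with adjusted p from 0.0535 to 0.0829. With equal library totals the change was -0.07 in KO (adjusted p = 0.678) and -0.30 in WT cells (adjusted p = 0.095), neither of which passed. The WT call was also lost on the WT groups alone.

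Ccne2 had 2737 and 2824 normalised counts at day 2 in KO+Rescue cells, 2058 and 2335 in KO cells and 1136 and 2421 in WT cells. Its changes against mESC were -1.34 ± 0.31 in KO+Rescue, -0.92 ± 0.31 in KO and -1.0 ± 0.31 in WT cells (adjusted p = 0.00234, 0.0197 and 0.0153). The WT change kept its call under 10 of 14 alternatives. Its losses included the WT groups alone, and leaving out WT day 2 replicate A (-0.45) or WT mESC replicate B (-0.73). The KO change lost its call without KO mESC replicate B (-0.79), KO day 2 replicate A (-0.83) or KO day 2 replicate B (-1.02), with adjusted p from 0.054 to 0.115, and with equal library totals (-0.59, adjusted p = 0.0549).

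Cdk4 and Cdk6 are the partner kinases of the D-type cyclins. Cdk6 (Entrez gene 12571, chromosome 5, 3341004 to 3531008) had 959 and 961 normalised counts in KO+Rescue, 762 and 795 in KO and 963 and 754 in WT day 2 cells. Each of these lay below each mESC library of the same line. The changes were -0.67 ± 0.14 in KO+Rescue, -0.80 ± 0.14 in KO and -1.05 ± 0.14 in WT cells (adjusted p = 0.0013, 0.000332 and 4.15e-05). With equal library totals Cdk6 kept its call in WT cells, but not in KO+Rescue (-0.30, adjusted p = 0.22) or KO cells (-0.46, adjusted p = 0.064). Cdk4 (Entrez gene 12567, chromosome 10, 127063535 to 127067288) was called in KO+Rescue cells, at 30158 and 30274 normalised counts at day 2 against 42538 and 43818 in mESC (-0.51 ± 0.15, adjusted p = 0.00946). That call was lost without either day 2 library, with -0.51 and adjusted p = 0.0535 without replicate A, and -0.52 and adjusted p = 0.0504 without replicate B, and with equal library totals (-0.15, adjusted p = 0.354). It was not called in KO (-0.34 ± 0.15, adjusted p = 0.0634) or WT cells (-0.27 ± 0.15, adjusted p = 0.149).

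Of the genes whose proteins hold the cycle back, Rb1 (Entrez gene 19645, chromosome 14, 73192858 to 73325951) rose in each line. It had 306 and 325 normalised counts at day 2 against 120 and 112 in mESC of the KO+Rescue line. In KO cells it had 346 and 358 at day 2 against 133 and 135 in mESC, and in WT cells 384 and 286 at day 2 against 146 and 131 in mESC. No day 2 library overlapped any mESC library. The changes were 1.43 ± 0.19, 1.39 ± 0.19 and 1.26 ± 0.19 in KO+Rescue, KO and WT cells (adjusted p = 2.82e-05, 3.67e-05 and 0.000108).

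Cdkn1b was called higher at day 2 in KO+Rescue (0.71 ± 0.22, adjusted p = 0.0146) and WT cells (0.64 ± 0.22, adjusted p = 0.0263) and was not called in KO cells (0.04 ± 0.22, 95% interval -0.44 to 0.52, adjusted p = 0.883). The difference between KO and WT in this stage change was -0.60 ± 0.31 and was not called (adjusted p = 0.443). The WT rise kept its call under 9 of 14 alternatives. Its losses included the WT groups alone, and leaving out day 2 replicate B (0.30), mESC replicate A (0.58) or mESC replicate B (0.71). The KO+Rescue rise was 0.56 without day 2 replicate A (adjusted p = 0.119), 0.68 without mESC replicate A (adjusted p = 0.0627) and 0.74 without mESC replicate B (adjusted p = 0.0514).

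Rbl1 (Entrez gene 19650, chromosome 2, 157145893 to 157204534) encodes the pocket protein p107, whose gene is itself a known E2F target. It fell at day 2 in KO+Rescue (-0.59 ± 0.15, adjusted p = 0.00388) and KO cells (-0.75 ± 0.15, adjusted p = 0.000677), with 1111 and 1064 normalised counts at day 2 against 1635 and 1629 in mESC of the KO+Rescue line and 884 and 933 against 1564 and 1492 in the KO line. In WT cells it had 943 and 1191 at day 2 against 1174 and 1470 in mESC, which overlapped (-0.31 ± 0.15, adjusted p = 0.0903). With equal library totals the KO+Rescue change was -0.22 (adjusted p = 0.268). RefSeq windows from 250 bases before to 50 after the start were at hand for 6 of the 10 genes (7 windows), and Rbl1 was the gene among them with a match to the E2F letters TTTCCCGC, TTTGGCGC, TTTCGCGC or TTTGCCGC on either strand. Such a match was found in 2.26% of 32851 windows. The Rbl1 stretch is shown, at chr2:157204535-157204578 of GRCm38.p6 on the minus strand, with the match in capitals at bases -18 to -11 from the start.
Rbl1: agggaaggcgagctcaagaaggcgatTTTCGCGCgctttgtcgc

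Set per kilobase of the longest GENCODE coding transcript, so that genes can be compared, the D-type cyclin RNA was mostly Ccnd3 in mESC and mostly Ccnd1 at day 2. At day 2 Ccnd1 made up 63.7% of the D-type sum in KO+Rescue, 55.2% in KO and 69.6% in WT cells. In mESC it made up 21.5% in KO+Rescue, 19.7% in KO and 35.2% in WT cells, and Ccnd3 made up 77.9%, 79.9% and 62.9%. Ccnd2 was the smallest part in all 6 groups, from 0.453% in KO mESC to 3.77% in KO day 2 cells. The D-type sum per kilobase was 2016 in KO+Rescue, 1822 in KO and 2832 in WT cells at day 2, and 4105, 3589 and 5370 in mESC. Library values of the sum were lower in each KO and KO+Rescue library than in either WT library of the same stage. Ccne1 was 88.2% to 95.6% of the E-type sum, and Cdk4 was 99.1% to 99.6% of the sum of Cdk4 and Cdk6. These shares are group means over 2 libraries, were not tested and rest on 1 transcript length per gene.

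**Figure D4:**
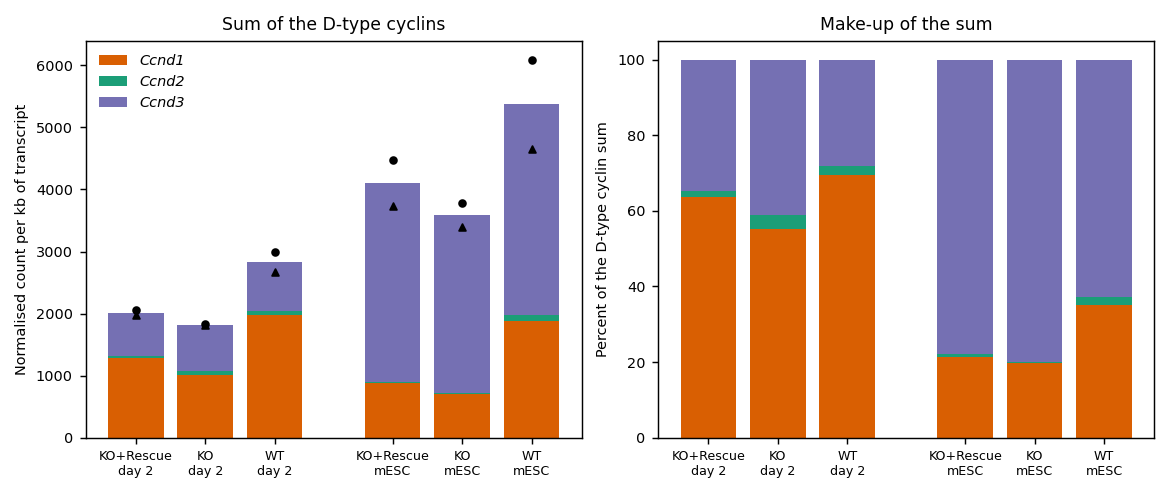
D-type cyclin RNA at day 2 and in mESC as stacked normalised counts per kilobase of transcript (left, circles and triangles for the sums in replicates A and B) and as percent of the sum (right, group means). Ccnd1 is 55.2% to 69.6% of the sum at day 2 and 19.7% to 35.2% in mESC.

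Other genes of the G1 network were read in 6 lists with 85 genes, of which 84 were tested. In KO against WT mESC limma called 9 of the 84, where 9.48% of all tested genes were called in either direction. Among 7 further genes with Cdkn symbols, a grouping by name and not by protein function, 2 rose. These were Cdkn3 (1.09 ± 0.25, adjusted p = 0.0191) and Cdkn2d (0.60 ± 0.17, adjusted p = 0.0414). Cdkn1c, the gene of the inhibitor p57, fell (-0.64 ± 0.15, adjusted p = 0.0232). With equal library totals Cdkn2d had 0.39 and was not called (adjusted p = 0.14), and the other 8 kept their calls. Of 11 E2F, DP and pocket protein genes E2f8 and E2f2 fell, by 0.68 and 0.71 on the log2 scale. The other 4 that fell were the phosphatase gene Cdc25b (-0.66), the replication licensing genes Cdc6 (-0.43) and Cdt1 (-0.59), and the topoisomerase gene Top2a (-0.57). Of 10 tested ubiquitin ligase genes for cyclins and p27, 0 were called by limma, edgeR or DESeq2, with a median change of 0.01. Of these 10, 2 had an unadjusted p under 0.05, beside 29.0% of all tested genes. Of 26 S phase genes 2 fell and 24 were not called, with a median of -0.14, beside -0.04 over all tested genes.

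At day 2 Cdkn1c was the called gene of the 84 in KO against WT by limma, edgeR and DESeq2, with a mean of 1482 normalised counts in KO cells and 3684 in WT cells (-1.31 ± 0.15, adjusted p = 0.000282). Over all tested genes 5.21% were called there in either direction. An unadjusted p under 0.05 was found for 4 of the 84 genes, beside 18.4% of all tested genes. Cdkn1c also had the smallest adjusted p of the 7 further Cdkn genes at day 2 over mESC in WT cells (2.86 ± 0.15, adjusted p = 1.6e-08). Of these 7 genes 5 rose there and none fell, where 26.6% of tested genes were called higher.

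Between the stages the counts of calls in the lists depended on the scaling. Of the 26 S phase genes 14 fell at day 2 in WT cells and none rose, where 25.3% of tested genes were called lower. Their median was -0.48, beside -0.02 over all tested genes. With equal library totals 2 fell, where 2372 of 15444 tested genes were called lower, and the median was -0.25, beside 0.22. In KO cells 13 fell and 2 rose, against 4 and 2 with equal totals, and in KO+Rescue cells 14 fell and 1 rose, against 7 and 2. The S phase median in KO cells was -0.34 beside 0.02, and -0.005 beside 0.36 with equal totals. In KO+Rescue cells it was -0.45 beside -0.03, and -0.08 beside 0.35 with equal totals. Orc1, a subunit of the origin recognition complex, had the smallest adjusted p of the list in WT cells (-1.52 ± 0.18, adjusted p = 1.45e-05). Cdk2, the kinase partner of cyclin E, fell in WT cells (-0.97 ± 0.11, adjusted p = 8.05e-06), as did Skp2, whose protein marks p27 for breakdown (-1.08 ± 0.14, adjusted p = 2.76e-05). The 14 genes of other CDKs, cyclins and activators held 5 that fell in WT cells, against 1 with equal totals. Of 16 G2 and mitosis genes 5 fell and 3 rose in WT cells, against 0 and 4 with equal totals.

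Genes beside Ccnd1 and Ccnd2 were read in the same fit. Of the neighbours of Ccnd1, Fgf15 fell in KO against WT mESC (-2.31, adjusted p = 0.000913), while Fgf4 had 0.29, Bc1 0.71 and Tpcn2 -0.41, none of them called. At day 2 Fgf4 rose in KO against WT cells (0.52, adjusted p = 0.0229), and Fgf15 had 1.1 (adjusted p = 0.0646), Bc1 0.98 and Tpcn2 0.13, none of them called. Of the 6 nearest tested genes around Ccnd2, 0 were called by limma, edgeR or DESeq2 in KO against WT at either stage. Over all tested genes limma called 5.21% at day 2 and 9.48% in mESC. With 6 genes the count cannot be told from those shares. An unadjusted p under 0.05 was found for 1 of the 6 in mESC and 0 at day 2, beside 29.0% and 18.4% of all tested genes. The closest, Tigar and Parp11, had changes of 0.26 and -0.50 in mESC (adjusted p = 0.341 and 0.107).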

How the data were processed

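RNA was sequenced in 12 libraries. The authors trimmed reads with Trimmomatic, aligned them to mm10 with STAR, counted them per gene with featureCounts and scaled them with DESeq2, as the submitters' processing notes and methods state. Versions are not given in the sources used here. The deposited values are a signal, normalised read counts per gene. Within each library 100% of values were whole multiples of the value of 1 read (tolerance 0.001), so counts and totals were recovered. Genes with a mean of at least 10 were kept. limma 3.58.1 (R 4.3.3, intensity trend, 6 group means, all libraries, two-sided) was fitted to log2(normalised count + 1), with Benjamini-Hochberg adjustment over 15341 genes in each of 11 contrasts. On the recovered counts edgeR 4.0.16 and DESeq2 1.42.0 served as alternatives, beside equal library totals, pseudocounts of 0.5 and 5, no filter, a minimum of 50, no trend, a replicate block, fits on the compared groups alone and leaving out each library. Scripts were tested on simulated data. The text names all 10 genes, up to 4 called genes per list by adjusted p or else the most abundant one, and tested neighbours of Ccnd1 and Ccnd2. Members and lists were chosen with earlier results of these data known. Positions are those of RefSeq for GRCm38.p6, and lengths those of GENCODE vM39.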

Additional observations from a re-analysis of the deposited data

Results flagged for a closer look

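The difference in Ccnd2 between the KO and WT lines depended on the stage, by a test of the interaction itself. The KO line is a single clone, so loss of PROSER1 cannot be told apart here from differences between clones. The change in KO over WT was 0.02 ± 0.21 at day 2 and -2.69 ± 0.21 in mESC, and the interaction was 2.71 ± 0.30 (adjusted p = 0.0018, limma). It was called under all 18 alternatives run for it, with values from 2.49 to 2.92 and adjusted p of at most 0.0203. Both KO day 2 libraries lay above both KO mESC libraries, with 374 and 496 normalised counts against 109 and 97.1. Both WT day 2 libraries lay below both WT mESC libraries, with 493 and 367 against 746 and 597. The WT fall kept its call under 10 of 14 alternatives, and lost it with equal library totals (-0.41, adjusted p = 0.193, limma).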

How the results depend on the processing

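Of 34 calls of the 10 genes, 19 held under all alternatives, and no call changed sign. The other 15 lost their call under at least 1, most often with equal library totals (9 calls). In KO over WT mESC the count of called genes was 2, and 5 with a replicate block (Ccne1, Cdk6 and Cdkn1b added), 3 with equal totals and 2 to 3 on leaving out a library. In KO+Rescue over KO it was 0 in mESC and 1 with the block. At day 2 it was 1, and 0 with equal totals, without the filter or without the trend, 2 by DESeq2, 3 with the block, 4 on the compared groups alone and 0 to 0 on leaving out a library. In KO+Rescue over WT at day 2 it was 2, and 4 by DESeq2, 5 with the block, 1 on the compared groups alone and 0 to 4 on leaving out a library. At day 2 over mESC it was 7 in WT and 3 on those groups alone (Ccnd2, Ccne1, Ccne2 and Cdkn1b lost). In KO it was 8, and 5 with equal totals. The interaction of re-expression and stage had 0, and 1 by DESeq2, with the block or on those groups alone. The causes were not tested. The letters A and B did not pair libraries over all groups: of 15 pairs of groups 6 had a correlation of deviations over 0.1 (range -0.05 to 0.41). These 6 were all the pairs among the 3 mESC groups and WT day 2, so pairing may hold there. Over all tested genes the share called in KO over WT mESC ran from 1.18% to 23.8% across alternatives, and in KO+Rescue over KO mESC from 0.00652% to 3.81%. With 2 libraries per group, a gene that was not called may still differ. Leaving out 1 library of a group rests on the spread of the other groups.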

Other observations

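Over the 12 libraries the tested gene whose log2 values followed those of Ccnd1 most closely was Piwil2, a germline PIWI gene (Pearson r = 0.988), followed by Fam169a (0.963), Bcl6b (0.957), Rad50 (0.949) and Arrb2 (0.947). Piwil2 averaged 657 normalised counts in KO+Rescue, 574 in KO and 942 in WT cells at day 2, and 473, 390 and 950 in mESC of the same lines. For Ccnd2 the closest were Rgs19 (0.929), Tyw1 (0.928), Syt3 (0.927), Cdh3 (0.918) and Gemin5 (0.918). Cdh3, the P-cadherin gene, averaged 326 normalised counts in KO+Rescue, 582 in KO and 717 in WT cells at day 2, and 199, 201 and 610 in mESC. These r values are descriptions over libraries that share lines and stages, chosen as the highest of 15341 genes, and carry no test.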
